A study of Mus musculus with 63 samples.

Results

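The mitosis and G2/M genes are 40 genes whose products act as cells enter, carry out and leave mitosis. They were taken by symbol from the platform's probe table, and where a gene had several probes the one with most values was used. Of the 40, 36 were measured, among 14539 genes with a symbol. Ccnb1, Ccnf, Kif20a and Cenpf were not analysed here. Primary keratinocytes from the skin of newborn CD-1 mice with a total EGFR knockout (KO) or wild-type EGFR (WT) were transduced with v-rasHa, using diluted supernatant of Psi-2 producer cells followed by 4 days of culture, or mock-treated, a step the labels do not describe further. The EGFR kinase inhibitors AG1478, erlotinib and PD153035, which share a 4-anilinoquinazoline core, were given at 1 µM for 2 h. Each array set 1 sample against Universal Mouse Reference RNA, a pool of RNA of 11 mouse cell lines. The groups were KO ras with AG1478 (6 samples), with erlotinib (4) and with PD153035 (5), KO ras without inhibitor (5), WT ras with each inhibitor (5 each), WT ras without inhibitor (5), WT mock with each inhibitor (5 each), KO mock (3) and WT mock (4). No KO mock cells with an inhibitor were among the samples.

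Entry into mitosis is driven by the kinase Cdk1 with cyclins A and B. The spindle checkpoint holds chromosome segregation until the kinetochores are attached, and the anaphase-promoting complex then destroys securin and cyclin B. Transcripts of most of these genes are low in resting cells and peak in G2 and mitosis, so in skin they mark the dividing basal keratinocytes, whose division EGFR signalling promotes. In bulk RNA, fewer cells in G2 and mitosis and less RNA per such cell cannot be told apart.

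Many genes of this kind carry a CHR element in the promoter, the site through which the DREAM complex, and later B-Myb and FoxM1 with the MuvB core, act on them, often with CCAAT boxes bound by NF-Y. RefSeq promoter windows of 300 bases (250 before and 50 after the gene start, build GRCm38.p6) were on hand for 32 of the 40 members, 29 of them measured. A CHR match (TTTGAA or TTCGAA, either strand) lay in 25 of the 32 windows (78.1%), against 19.4% of the windows of all 26994 genes. CCAAT on either strand lay in 27 (84.4%), against 37.9%, and both motifs in 24 (75%), against 7.69%. At least 2 CCAAT boxes lay in 18 (56.2%), against 12.1%. An E2F-type match (TTTCCCGC, TTTGGCGC or TTTCGCGC, either strand), the element typical of G1/S genes, lay in 1 window (3.12%), that of Cdk1, against 1.9%. The Ccna2, Cdc25c, Aurkb, Incenp, Tpx2, Kif20a, Smc4 and Foxm1 windows are not shown. Below are the 150 bases before the start of 6 members on which the results turn, in the direction of transcription, with CHR, CCAAT and E2F-type matches of either strand in capitals (a CHR match on the other strand reads TTCAAA or TTCGAA, and a CCAAT box ATTGG).
Cdk1, chr10:69352913-69353062, minus strand: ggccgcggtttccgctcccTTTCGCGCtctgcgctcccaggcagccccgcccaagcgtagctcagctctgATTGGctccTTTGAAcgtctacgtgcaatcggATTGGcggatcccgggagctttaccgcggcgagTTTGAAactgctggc
Ccnb2, chr9:70421555-70421704, minus strand: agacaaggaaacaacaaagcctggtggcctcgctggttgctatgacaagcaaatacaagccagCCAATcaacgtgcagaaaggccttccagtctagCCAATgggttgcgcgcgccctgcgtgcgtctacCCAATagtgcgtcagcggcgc
Top2a, chr11:99024190-99024339, minus strand: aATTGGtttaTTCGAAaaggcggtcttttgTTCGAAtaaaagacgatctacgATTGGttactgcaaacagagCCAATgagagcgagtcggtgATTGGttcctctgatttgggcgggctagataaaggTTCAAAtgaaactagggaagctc
Kif11, chr19:37376232-37376381, plus strand: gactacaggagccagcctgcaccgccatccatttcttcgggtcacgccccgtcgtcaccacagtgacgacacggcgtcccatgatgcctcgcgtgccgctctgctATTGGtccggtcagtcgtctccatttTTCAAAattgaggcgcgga
Pttg1, chr11:43425982-43426131, minus strand: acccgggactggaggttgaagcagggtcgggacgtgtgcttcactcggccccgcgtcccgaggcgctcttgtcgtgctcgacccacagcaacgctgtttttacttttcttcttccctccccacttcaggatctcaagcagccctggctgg
Plk1, chr7:122159285-122159434, plus strand: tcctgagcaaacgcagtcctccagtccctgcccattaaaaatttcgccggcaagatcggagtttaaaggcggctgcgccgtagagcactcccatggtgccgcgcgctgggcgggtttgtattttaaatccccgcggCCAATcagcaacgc
The Top2a window held 4 CHR matches and 6 CCAAT boxes over its 300 bases, and that of Cdk1 held 2 and 3. The Ccnb2 window also held 2 and 3, with both CHR matches outside the bases shown. The windows of Kif11 and Plk1 held 1 of each, that of Plk1 with its CHR match after the start. The Pttg1 window held neither. A match describes the letters in these windows and no binding was measured.

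All values are log ratios turned to sample over reference, and log base 2 is assumed from their spread. Arrays held 24860 to 28047 values and their medians lay between −0.072 and 0.067, while the keratinocyte marker probes had medians of 1.24 to 5.30 on all 63 arrays. The direction of the ratios was itself set by these markers on the forward-labelled arrays, so their sign is no separate check of it. A pair of arrays of KO ras with AG1478, repeats 3 and 4, ran against their dye labels and were turned by their correlation with the other arrays. The deleted gene, Egfr, had 2 probes, neither called in any of the 33 comparisons, and in KO minus WT mock they gave −0.60 ± 0.49 and −1.15 ± 0.58 (log2 difference ± SE, adjusted p = 0.533 and 0.291). In ras cells without inhibitor they gave 0.34 ± 0.40 and −0.63 ± 0.48 for KO minus WT. The values were −0.58 and −0.62 with AG1478, 0.44 and 0.63 with erlotinib, and −0.15 and −0.88 with PD153035. Whether these probes fall inside the deletion is not known, so they check no label. Experiment numbers fall into 8 runs of unstated meaning. KO and WT cells given PD153035 lie in the same run, whereas KO and WT cells without inhibitor share no run in either the mock or the ras state, and there genotype and run cannot be told apart. Sample 2 of WT mock stood below the other 3 in 7 members, among them Ccnb2, Kif23 and Bub3, and results on WT mock are given with and without it.

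Summarised by the median of the 36 members in a sample, KO ras cells given PD153035 lay lowest of the 13 groups. Their sample medians were −0.71 to −0.26, with a mean of −0.47 ± 0.21 (SD, n = 5), against 0.06 to 0.89 and a mean of 0.38 ± 0.31 (n = 5) in WT ras cells given PD153035. These ranges did not overlap. KO cells without inhibitor averaged −0.17 ± 0.17 in the ras state (n = 5) and −0.21 ± 0.11 in the mock state (n = 3), against 0.55 ± 0.33 in WT ras cells (n = 5) and 0.30 ± 0.43 in WT mock cells (n = 4). The KO and WT ranges were apart in the ras state (−0.27 to 0.13 in KO, 0.24 to 1.09 in WT) but overlapped in the mock state, where 1 WT sample lay at −0.20. With AG1478 the ras cells averaged 0.11 ± 0.34 in KO (n = 6) and 0.34 ± 0.07 in WT (n = 5), and with erlotinib 0.21 ± 0.13 in KO (n = 4) and 0.29 ± 0.22 in WT (n = 5), with overlapping ranges in both pairs. WT mock cells averaged 0.01 ± 0.57 with AG1478, −0.10 ± 0.55 with erlotinib and −0.16 ± 0.25 with PD153035 (n = 5 each). In the order of the 13 means, the ranges of each neighbouring pair of groups overlapped. This held for the lowest group and the next, KO mock (−0.31 to −0.10), though their means lay farther apart than the SD of either.

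**Figure D1:**
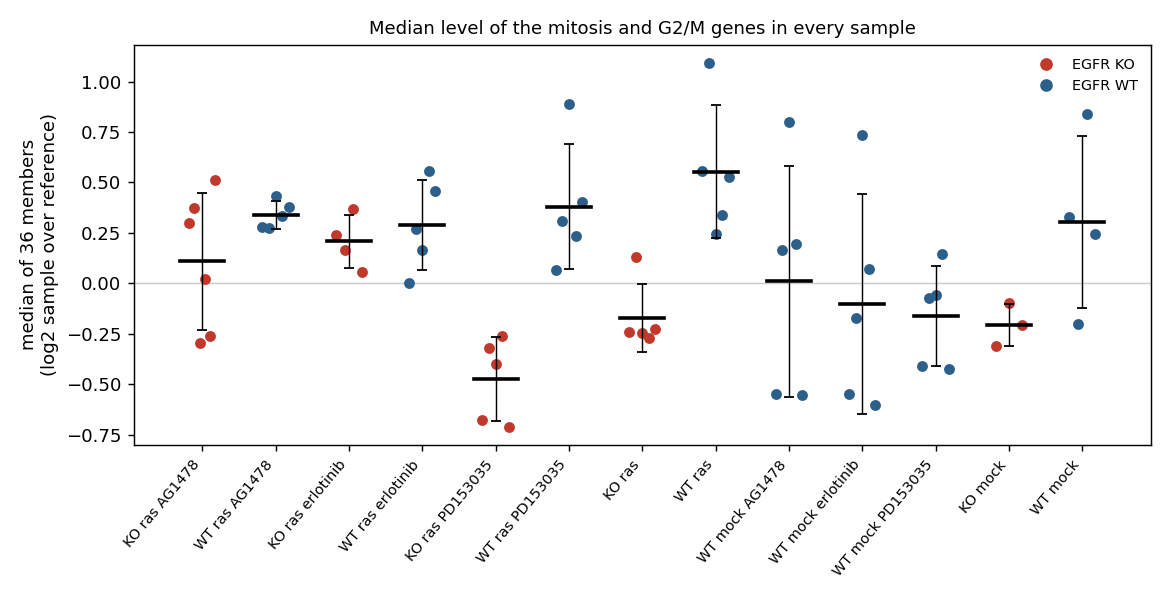
Median of the 36 members in every sample (log2 sample over reference, vertical axis) for the 13 groups on the horizontal axis. Points are samples, KO in red and WT in blue, and bars are the group mean ± SD. KO ras cells given PD153035 lie at −0.71 to −0.26, below all 5 samples of WT ras cells given PD153035, which lie at 0.06 to 0.89.

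The members moved together to different degrees. Over the 62 samples, which share the reference RNA and include the group differences, the Pearson correlation of a member with the mean of the others was highest for Cdk1 (0.878), Bub1b (0.865), Kif23 (0.864) and Incenp (0.821), the last a scaffold of the chromosomal passenger complex. It was lowest for Kif2c (−0.33), a kinesin that takes microtubules apart at centromeres, and for Plk1 (0.113), Bub3 (0.143) and Cdc25b (0.152). With group means removed, Cdk1 still gave 0.814 and Kif2c −0.23, while Plk1 gave 0.42. Among group means the widest spread over the 13 groups was that of Kif23 (SD 0.804), followed by Ube2c (0.725), Ccna2 (0.721) and Cdk1 (0.72). The narrowest was that of Cdc25c (0.256).

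**Figure D2:**
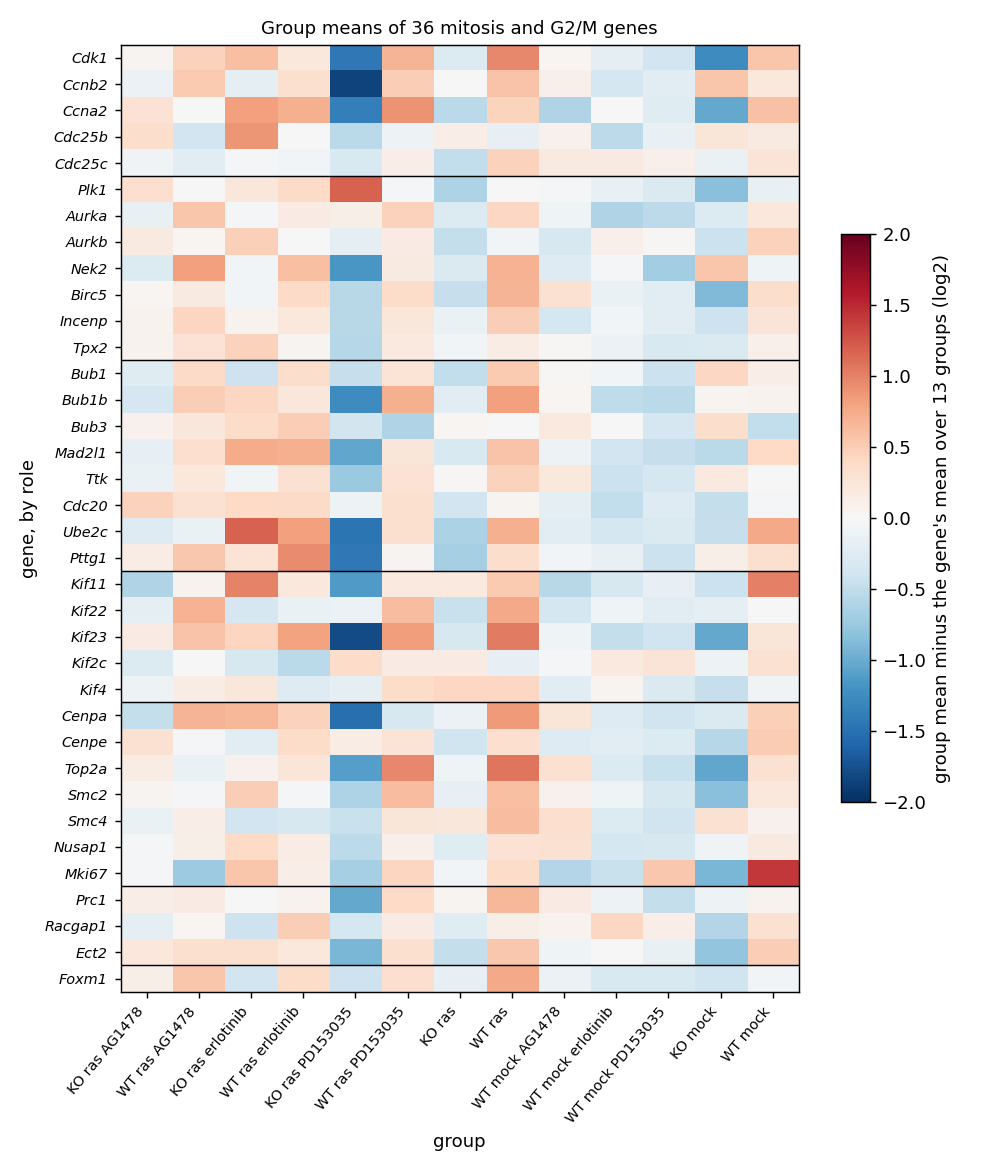
Mean of each measured member (rows, in blocks by role) in each of the 13 groups (columns), with the member's own mean over the groups taken off. Red is above that mean and blue below it, in log2 units. The column of KO ras cells given PD153035 is blue for most members and red for Plk1.

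The question behind KO against WT cells under the same inhibitor is what remains different when the kinase is also inhibited in cells that have it. With PD153035 in ras cells, 9 of 36 members were lower in KO and none was higher by limma's moderated test (adjusted p under 0.05), with Kif23, Ccnb2, Ccna2, Cdk1 and Top2a more than 2 log2 units lower. Over all probes 1.38% were called. The median difference of the members was −0.85, with 33 of 36 negative, against −0.01 for all probes. In 16 of 36 members the 5 KO and 5 WT samples did not overlap, against 5.98% of all probes, and 21 had an unadjusted p under 0.05. By role, the called genes were 3 of 5 among Cdk1, cyclins and Cdc25 phosphatases, 2 of 8 in the spindle checkpoint and anaphase, 2 of 5 kinesins, 1 of 7 in centromere, chromosome structure and spindle, 1 of 3 in cytokinesis and none of 7 among Plk1, the Aurora and Nek kinases and their partners, where 5 had an unadjusted p under 0.05.

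Cdk1, the kinase that starts mitosis, read −0.54, −0.08, −0.43, −0.01 and −0.16 in KO ras cells given PD153035, against 1.34, 1.55, 2.30, 2.24 and 1.90 in WT ras cells given PD153035. Every KO sample lay below 0 and every WT sample well above it. The difference was −2.11 ± 0.41 (SE, 95% interval −2.93 to −1.29, adjusted p = 0.00162). Ccnb2, cyclin B2, which activates Cdk1, read −2.98, −2.41, −3.06, −3.09 and −3.02 in KO, against −0.54, −0.41, −0.63, −0.51 and −0.75 in WT. The WT samples lay within a narrow band and all KO samples far under it. The difference was −2.34 ± 0.48 (−3.29 to −1.39, adjusted p = 0.00303). Ccna2, cyclin A2, which serves both S phase and mitotic entry, read 0.55, −0.18, 0.40, 0.56 and 0.99 in KO, against 2.35, 2.71, 2.94, 2.66 and 2.98 in WT, again without overlap. Its difference was −2.26 ± 0.50 (adjusted p = 0.00794), and its fit, like those of Mad2l1, Ube2c, Kif11 and Ect2, lacked 1 of the 63 arrays. The phosphatases Cdc25b and Cdc25c, which switch Cdk1 on, gave −0.44 ± 0.44 and −0.44 ± 0.29 and were not called.

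Bub1b, the BubR1 kinase-like protein of the spindle checkpoint, read −2.38, −1.30, −1.40, −1.26 and −2.29 in KO, against −0.11, 0.07, 0.46, −0.15 and 0.95 in WT. The highest KO sample lay more than 1 unit under the lowest WT sample, and the difference was −1.97 ± 0.40 (adjusted p = 0.00274). Pttg1, securin, which keeps separase inactive until anaphase, read −2.43, −2.48, −2.32, −1.27 and −2.69 in KO, against −0.41, −1.28, −0.45, −0.41 and −1.22 in WT. Here the groups overlapped by 1 KO sample, at −1.27, beside a WT sample at −1.28. The difference was −1.49 ± 0.38 (adjusted p = 0.0305), a call lost without any of 7 of the 10 samples (KO 1, 2, 3 and 5, WT 1, 3 and 4). Mad2l1, the Mad2 checkpoint protein, gave −1.29 ± 0.39 (adjusted p = 0.0862) without overlap, and Ube2c, the ubiquitin-conjugating enzyme of the anaphase-promoting complex, −1.79 ± 0.52 (adjusted p = 0.0724) with overlap. The other checkpoint members Bub1, Bub3 and Ttk and the activator Cdc20 gave −1.03 to 0.25, none of them called.

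Kif23, the kinesin of the central spindle that is needed for cytokinesis, had the widest difference of all members. It read −1.71, −1.62, −1.93, −0.53 and −2.39 in KO, against 0.28, 1.05, 1.41, 1.49 and 0.71 in WT. No KO sample reached 0 and no WT sample fell under it, with a difference of −2.62 ± 0.47 (−3.57 to −1.67, adjusted p = 0.000594). Kif11, the kinesin that separates the spindle poles, read −0.70, −0.03, 0.18, −0.16 and 0.07 in KO, against 1.07, 1.18, 1.43, 0.54 and 1.84 in WT. The groups were apart, and the difference was −1.34 ± 0.35 (adjusted p = 0.0349), a call lost without any of 8 of the 10 samples (KO and WT 1, 2, 3 and 5). Kif22, Kif4 and Kif2c were not called, at −0.73 ± 0.37, −0.56 ± 0.45 and 0.21 ± 0.31.

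Top2a, the topoisomerase that untangles sister chromatids, read −1.30, −0.95, −1.91, −0.78 and −1.20 in KO, against 0.81, 0.96, 0.71, 0.82 and 0.85 in WT. The WT samples lay close together and the KO samples all under 0, with a difference of −2.06 ± 0.44 (adjusted p = 0.00554). Cenpa, the histone H3 variant of centromeres, read 0.42, 0.28, 0.20, 0.09 and 0.20 in KO, against 0.85, 1.58, 1.60, 1.23 and 1.85 in WT, but its difference of −1.18 ± 0.35 missed the threshold (adjusted p = 0.0689). Prc1, which bundles the microtubules of the central spindle, was lower by −1.42 ± 0.34 (adjusted p = 0.0176), at −1.58 to −0.70 in KO and 0.23 to 0.62 in WT. That call was lost without KO sample 1 or 5 or WT sample 2. The condensin subunit Smc2 gave −1.24 ± 0.38 and the RhoA activator Ect2 −1.24 ± 0.40, with neither called but neither overlapping. Plk1, the kinase that drives mitotic entry and spindle assembly, was the member with the highest difference, 1.23 ± 0.40 (adjusted p = 0.117), at 1.50 to 1.87 in KO and 0.20 to 1.09 in WT. Its second probe gave −0.07 ± 0.45 (adjusted p = 0.992), so this difference was seen with 1 of the 2 probes.

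**Figure D3:**
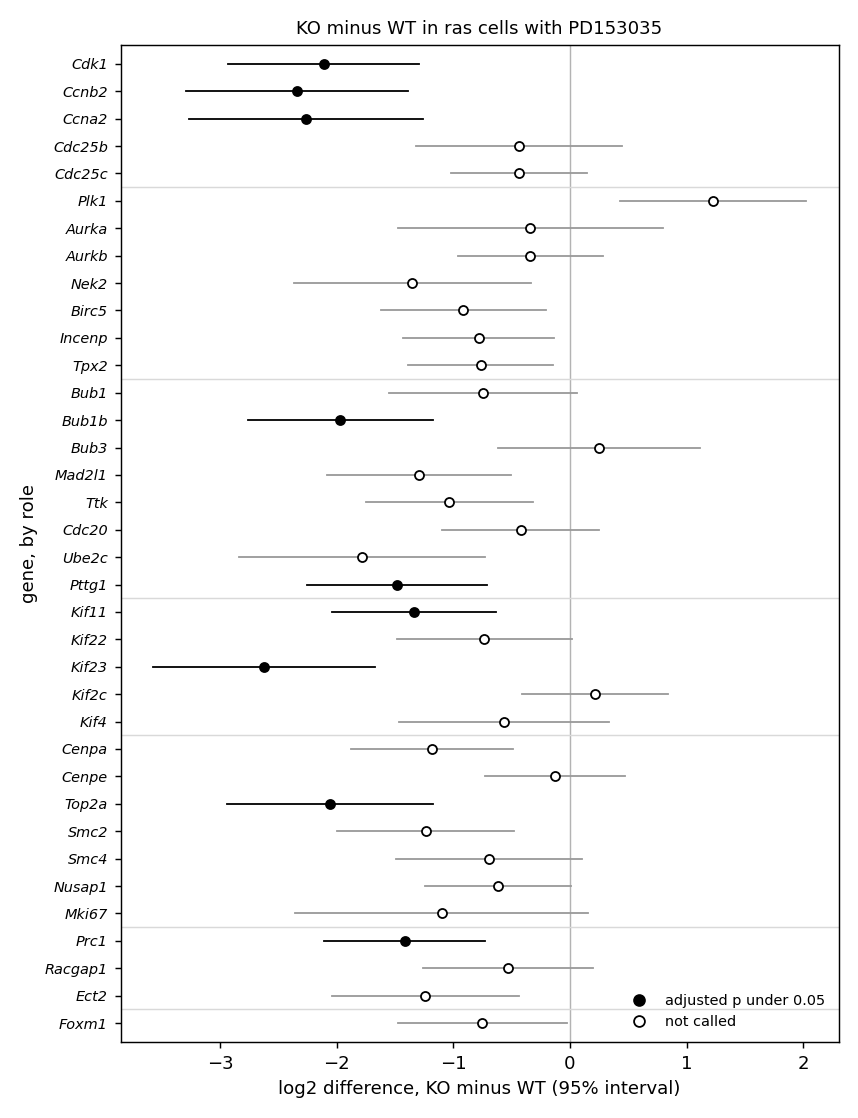
Difference of each measured member between KO and WT ras cells given PD153035 (log2, KO minus WT, horizontal axis) with its 95% interval, genes in blocks by role down the page. Filled points passed the adjusted threshold. The 9 filled points run from Kif23 at −2.62 to Kif11 at −1.34, and Plk1 at 1.23 lies farthest to the right.

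The calls of Kif23, Cdk1, Bub1b, Ccnb2 and Top2a held under all 15 alternative settings tried and without each of the 10 samples in turn. The count of 9 was 16 with only the 2 groups compared in the fit and 21 with array weights. Over the keratinocyte markers the median difference in the same comparison was 0.54, with 0 of 22 called by limma and 2 with an unadjusted p under 0.05. Their median level in a sample ran from 2.07 to 4.71 in KO ras cells given PD153035 and from 1.32 to 4.09 in WT ras cells given PD153035. Of the 14 fibroblast markers, 0 were called and 0 had an unadjusted p under 0.05, with a median of −0.52. Their part in the differences of the members was not tested.

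In the other inhibitor-treated ras cells fewer members were called. With AG1478, 1 of 36 members was lower in KO and none was higher, against 2.22% of all probes called (median −0.24 for the members and −0.03 for all probes, 26 of 36 negative, 5 with an unadjusted p under 0.05). It was Cenpa, at 1.53, 1.71, 1.01, 0.49, 1.10 and 1.76 in KO, against 2.57, 2.71, 1.98, 1.48 and 3.33 in WT, and its difference was −1.16 ± 0.33 (adjusted p = 0.0444). The groups overlapped, and that call was lost without any of 7 of the 11 samples (KO 1, 3, 4 and 5, WT 1, 2 and 5) and under 8 of 15 alternative settings. The other Cenpa probe gave 0.07 ± 0.50 (adjusted p = 0.968), of the opposite sign. In the 1 run that held both genotypes with AG1478 (6 KO and 2 WT samples) the median of the members was −0.30. With erlotinib, limma called 0 of 36 members, against 0.967% of all probes, with 18 negative, a median of −0.03 against −0.06 for all probes, and 2 with an unadjusted p under 0.05. That median covers 2 runs of opposite sign, with 0.26 and 23 of 36 positive in the run of 3 KO and 3 WT samples and −0.73 and 29 of 36 negative in the run of 1 KO and 2 WT samples.

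In the mean of KO minus WT over the 3 inhibitors, 6 of 36 members were lower in KO and none was higher, against 6.48% of all probes called (median −0.46 against −0.04, 30 of 36 negative, 19 with an unadjusted p under 0.05). They were Ccnb2 (−1.16 ± 0.28, adjusted p = 0.00479), Kif23 (−1.14 ± 0.28), Pttg1 (−0.85 ± 0.22), Bub1b (−0.87 ± 0.23), Cenpa (−0.71 ± 0.20) and Nek2 (−1.03 ± 0.29, adjusted p = 0.0214), a kinase of centrosome separation. This mean joins unlike parts, since the median of the members was −0.85 with PD153035, −0.24 with AG1478 and −0.03 with erlotinib. Bub1b with erlotinib averaged −0.05 in KO and −0.24 in WT, the other way. A difference shared by all 3 inhibitors is thus not shown by the mean. The call of Kif23 held under all 15 alternative settings, and those of the other 5 were lost under 1 to 4 of them. Cenpa, Nek2 and Pttg1 were not called without KO ras erlotinib sample 4. Nor were Cenpa and Nek2 with the probes of a gene averaged, and their other probes gave −0.19 ± 0.31 (adjusted p = 0.789) and −0.18 ± 0.25 (adjusted p = 0.748). Among cell-type markers in this mean, Trp63, Dsp and Itga6 (keratinocyte) and Dct (melanocyte) were higher in KO. Thy1 (fibroblast) and Cldn5 (endothelial) were lower. The part of these markers in the differences of the members was not tested.

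Without an inhibitor, KO against WT cells showed the same sign in most members but no call. KO and WT samples share no run in either state here, so genotype and run cannot be told apart. In ras cells limma called 0 of 36 members, against 1.92% of all probes, with 33 of 36 differences negative, a median of −0.71 against 0.01 for all probes, and 16 with an unadjusted p under 0.05. The lowest adjusted p was that of Cdc25c (−0.96 ± 0.29, adjusted p = 0.063), followed by Birc5, survivin of the chromosomal passenger complex (−1.15 ± 0.35, adjusted p = 0.0704). Cdk1 read 0.90, 1.00, 0.16, 1.43 and 1.04 in KO ras cells, against 2.35, 2.77, 1.84, 1.67 and 2.11 in WT ras cells. Its groups did not overlap and the difference was −1.24 ± 0.41 (adjusted p = 0.0927), as in 5 of 36 members without overlap, against 2.64% of all probes. Without KO ras sample 5, 2 members were called. The keratinocyte markers there had a median of 0.83, with 0 of 22 called by limma and 6 with an unadjusted p under 0.05. In mock cells limma called 0 of 36 members, against 1.11% of all probes, with 30 of 36 negative, a median of −0.48 against 0.05, and 12 with an unadjusted p under 0.05. Cdk1 read 0.09, 0.05 and −0.34 in KO mock cells, against 2.07, 0.85, 2.52 and 1.53 in WT mock cells, with a difference of −1.76 ± 0.49 (adjusted p = 0.0554), and Kif11 differed by −1.49 ± 0.43 (adjusted p = 0.0604). In the mock state 8 of 36 members did not overlap, against 20% of all probes, a share near the background. Without WT mock sample 2 the median was −0.77 with 0 calls. Of 22 keratinocyte markers in the same comparison, 3 were higher and none lower in KO mock (Krt14, Krt15 and Krt10), with a median of 1.23, and their part in the differences of the members was not tested.

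Whether these genotype differences themselves changed under an inhibitor was tested as an interaction in ras cells, KO minus WT. The untreated WT ras samples share no run with any treated ras sample, so that inhibitor and run cannot be told apart in it. Limma called 0 of 36 members for each inhibitor, against 0.791% of all probes for AG1478, 0.0653% for erlotinib and 0.0933% for PD153035. Unadjusted p under 0.05 was met by 4, 7 and 3 members in that order. The medians were 0.40 for AG1478, 0.63 for erlotinib and −0.33 for PD153035, against −0.06, −0.05 and −0.03 over all probes. For Cdk1 the interaction was 0.84 ± 0.57 with AG1478, 1.62 ± 0.60 with erlotinib (adjusted p = 0.292) and −0.87 ± 0.58 with PD153035 (adjusted p = 0.648). That more members were called with PD153035 than without an inhibitor was therefore not shown as a difference between those comparisons.

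**Figure D4:**
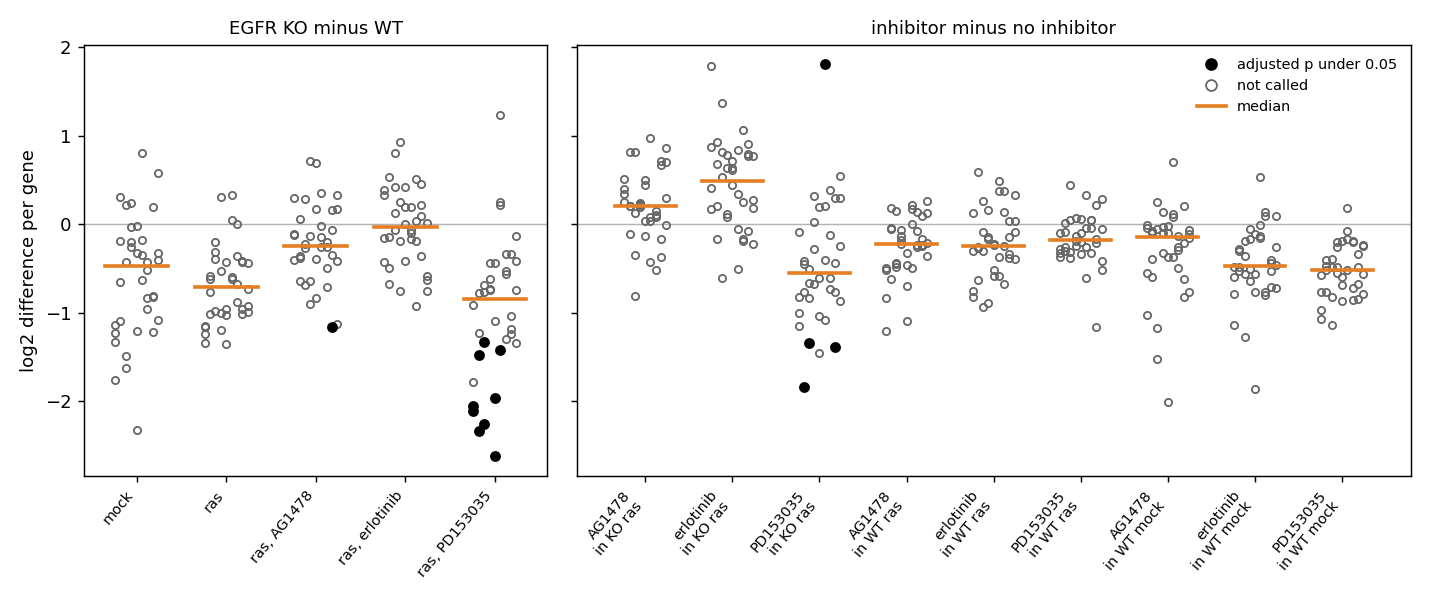
Log2 difference of each member (points) for KO minus WT in 5 settings (left panel) and for inhibitor minus no inhibitor in KO ras, WT ras and WT mock cells (right panel). Filled points were called and bars are medians. The medians of KO minus WT run from −0.85 with PD153035 to −0.03 with erlotinib, and those of the inhibitors in KO ras cells from −0.56 for PD153035 to 0.49 for erlotinib.

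In KO ras cells, which lack the target of the inhibitors, PD153035 against no inhibitor gave the only calls of members among the inhibitor effects. Of 36 members, 1 was higher and 3 were lower, against 4.84% of all probes called (median −0.56 against 0.01 for all probes, 27 of 36 negative, 10 with an unadjusted p under 0.05). Samples did not overlap in 8 members, against 5.77% of all probes. The PD153035 samples lie in another run than the untreated KO ras samples, and with run as a random block none of the 4 was called. Compound and run cannot be told apart here. Of 22 keratinocyte markers 3 were lower and none higher in the same comparison (Sfn, Trp63 and Jup), with a median of −0.78, and their part in the differences of the members was not tested. Of other cell-type markers, Cd3g (leukocyte) was higher and Emcn (endothelial) was lower.

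Plk1 read 1.87, 1.81, 1.75, 1.70 and 1.50 in KO ras cells given PD153035, against −0.42, −0.91, −0.42, 1.21 and 0.14 in KO ras cells without inhibitor. The treated samples lay closely together above the spread-out untreated ones, with a difference of 1.81 ± 0.40 (adjusted p = 0.00646). A second Plk1 probe, which correlated with the first at 0.079 over 62 samples, gave 0.92 ± 0.45 (adjusted p = 0.211). Cenpa was lower by −1.39 ± 0.35 (adjusted p = 0.0149), at 0.09 to 0.42 with PD153035 and 0.97 to 2.15 without, and its other probe gave −1.37 ± 0.52 (adjusted p = 0.105). Kif11 was lower by −1.34 ± 0.35 (adjusted p = 0.0198), at −0.70 to 0.18 with PD153035 and 1.07 to 1.46 without, a call lost without PD153035 sample 1. Ccnb2 was lower by −1.84 ± 0.48 (adjusted p = 0.0179), with untreated samples at −0.34, 0.52, −1.64, −2.10 and −1.79. These untreated values were widely spread, yet all lay above the treated ones, and the call was lost without untreated sample 1 or 2 or PD153035 sample 3. Prc1 (−1.08 ± 0.34), Kif23 (−1.46 ± 0.47) and Cdk1 (−1.15 ± 0.41) did not overlap either and missed the threshold (adjusted p = 0.0532, 0.056 and 0.0808).

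With AG1478 in KO ras cells limma called 0 of 36 members, against 0.229% of all probes, with a median of 0.20 against 0.002 over all probes, 27 positive and 6 with an unadjusted p under 0.05. With erlotinib it called 0 (2 without erlotinib sample 4), against 0.0543% of all probes, with a median of 0.49 against −0.003, 28 positive and 8 with an unadjusted p under 0.05. Within the 2 runs that held both groups the median was 0.62 (3 erlotinib samples and 1 untreated) and 0.13 (1 of each). Ube2c had the lowest p with erlotinib, at 2.21, 2.21, 1.85 and 0.69 against 1.31, −2.11, −0.62, 0.17 and 0.85 without inhibitor, a difference of 1.79 ± 0.56 (adjusted p = 0.171) with overlap. The mean of the 3 inhibitors in KO ras cells called 0, against 0.261% of all probes, with a median of 0.03 against 0.01 and 3 with an unadjusted p under 0.05. The members thus had medians of unlike sign with erlotinib and with PD153035 in cells of the same genotype. The AG1478 and PD153035 samples share no run with the untreated KO ras samples. Compound and run therefore cannot be told apart in their medians or in the mean of the 3 inhibitors.

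In WT ras cells limma called 0 of 36 members with any inhibitor. No treated WT ras sample shares a run with the untreated ones, and inhibitor and run cannot be told apart there. The background was 1.94% of all probes for AG1478, 3.41% for erlotinib, 0.66% for PD153035 and 2.19% for the mean of the 3. The medians were −0.23, −0.24, −0.18 and −0.19 in the same order, against 0.05, 0.05, 0.01 and 0.04 over all probes, with 27, 25, 26 and 27 of 36 negative and 2, 2, 1 and 2 at an unadjusted p under 0.05. Cenpa had the lowest adjusted p with PD153035, at 0.85, 1.58, 1.60, 1.23 and 1.85 against 2.47, 2.79, 2.41, 2.45 and 2.80 without inhibitor. The groups did not overlap, and the difference was −1.17 ± 0.35 (adjusted p = 0.0969). Top2a gave −1.21 ± 0.44 with AG1478 (adjusted p = 0.13). For Cdk1 the 95% intervals were −1.31 to 0.32 with AG1478, −1.57 to 0.06 with erlotinib and −1.10 to 0.54 with PD153035, so a decrease of 1 log2 unit lay within each.

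In WT mock cells limma called 0 of 36 members with AG1478, with erlotinib, with PD153035 and in their mean, and 0% of all probes in each. The medians were −0.15, −0.47, −0.52 and −0.33 in that order, against 0.03, 0.004, 0.01 and 0.02 over all probes, with 30, 32, 35 and 35 of 36 negative and 5, 4, 5 and 6 at an unadjusted p under 0.05. The same WT mock samples serve all of these comparisons. Within runs 1 and 2 the medians of the members were −0.72 and −0.33 with AG1478 and −0.47 and −0.53 with erlotinib. They were −0.73 and −0.65 with PD153035 and −0.62 and −0.53 in the mean. The untreated samples of run 1 include the average of the repeat 1 arrays, of which 1 array belongs to run 2. Kif11 gave the lowest p with each compound. It read 0.17, 1.13, 0.70, −0.10 and 0.44 with AG1478, against 1.68, 2.58, 2.18 and 1.63 without inhibitor, with no overlap and a difference of −1.52 ± 0.37 (adjusted p = 0.402). With erlotinib, where 1 of 5 samples had no value, the difference was −1.28 ± 0.39, and with PD153035 it was −1.14 ± 0.37, both without overlap and with adjusted p of 1. Without WT mock sample 2 the medians of the members were −0.46 with AG1478, −0.68 with erlotinib, −0.73 with PD153035 and −0.60 in the mean, with 0 calls in each.

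**Figure D5:**
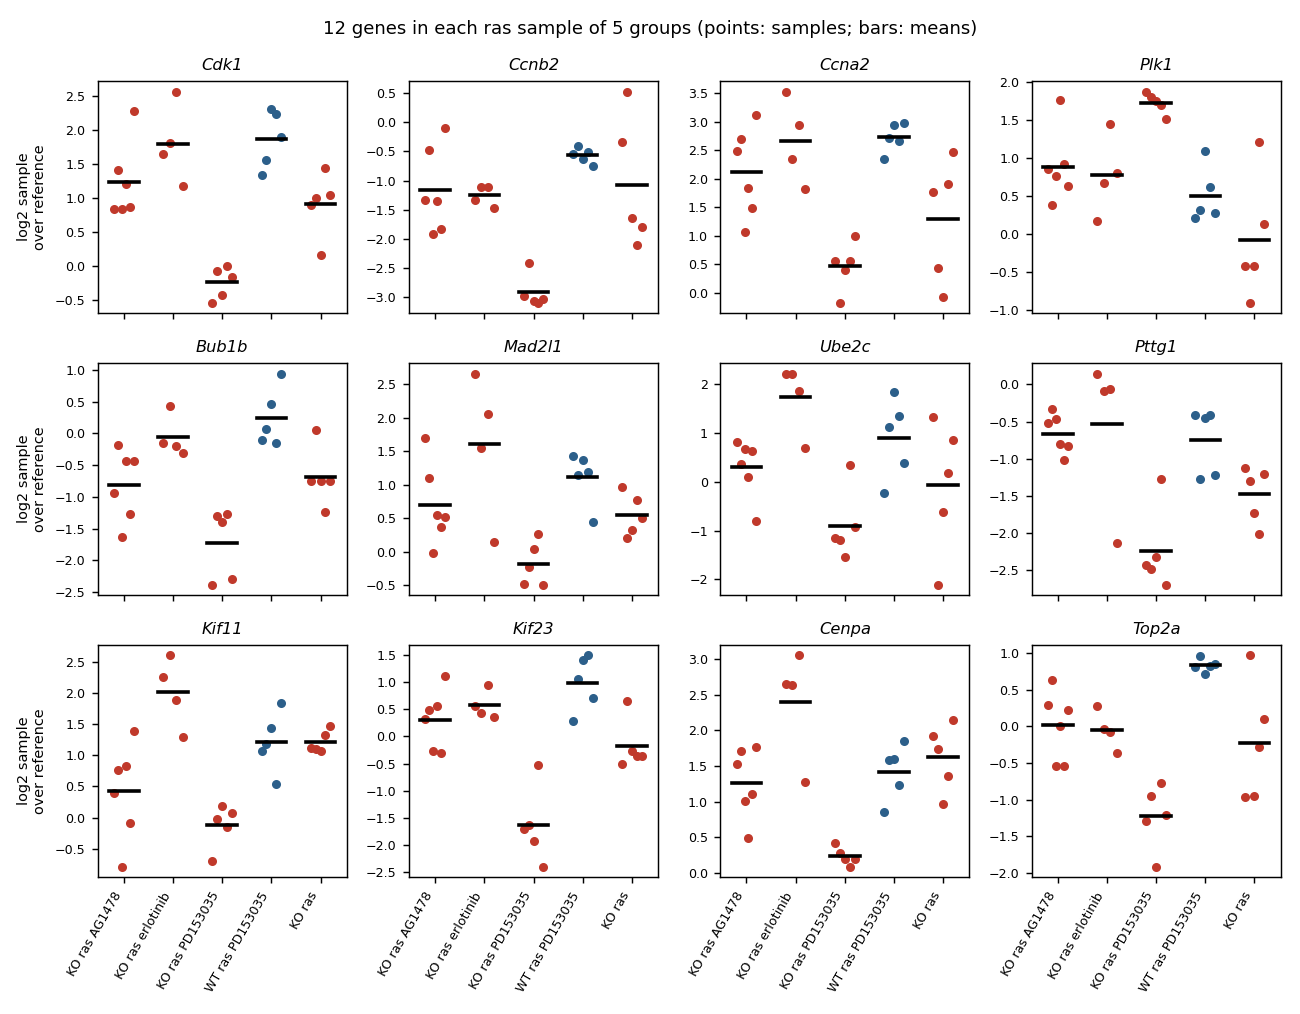
Values of 12 members (log2 sample over reference, vertical axes) in KO ras cells given AG1478, erlotinib or PD153035, WT ras cells given PD153035 and KO ras cells without inhibitor. Points are samples, KO in red and WT in blue, and bars are means. For Ccnb2 the 5 samples of KO ras cells given PD153035 lie at −3.09 to −2.41, below every other sample shown.

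The 3 compounds were set against each other at the same dose and time in 9 comparisons, 3 pairs in each of 3 cell states, and p-values were adjusted over all probes in each. They share the anilinoquinazoline core and differ in ring substituents. In KO ras cells, erlotinib minus PD153035 gave 11 of 36 members higher and none lower, against 5.82% of all probes called, with a median of 0.97 against −0.02, 30 of 36 positive and 20 with an unadjusted p under 0.05. The samples did not overlap in 14 members, against 10.3% of all probes. These compounds lie in different runs and with run as a random block none of the 11 was called, so that compound and run cannot be told apart. Without erlotinib sample 1, 7 members were called. Keratinocyte markers differed in the same direction, with 4 of 22 higher with erlotinib and none lower (Trp63, Lamb3, Itga6 and Cdh1) and a median of 0.56, and their part in the differences of the members was not tested. Of other cell-type markers, Thy1 (fibroblast), Esam (endothelial) and Cd3g (leukocyte) were lower with erlotinib and Sox10 (melanocyte) was higher. Their part was not tested either.

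Cenpa read 2.65, 2.64, 3.05 and 1.28 with erlotinib, against 0.42, 0.28, 0.20, 0.09 and 0.20 with PD153035, a difference of 2.18 ± 0.37 (95% interval 1.45 to 2.92, adjusted p = 0.000186). Kif11 read 2.25, 2.60, 1.88 and 1.30 with erlotinib, against −0.70 to 0.18 with PD153035 (2.15 ± 0.37, adjusted p = 0.000262). In both genes erlotinib sample 4 was the lowest of its group and still above every PD153035 sample. Ube2c differed by 2.61 ± 0.56 (adjusted p = 0.00283), Cdk1 by 2.02 ± 0.43 (0.00293), Kif23 by 2.18 ± 0.50 (0.00545), Mad2l1 by 1.79 ± 0.42 (0.00592), Pttg1 by 1.70 ± 0.41 (0.00765), Ccna2 by 2.20 ± 0.53 (0.00792), Bub1b by 1.68 ± 0.42 (0.0106) and Ccnb2 by 1.68 ± 0.50 (0.0355). Tpx2, which activates Aurora A on the spindle, differed by 1.04 ± 0.33 (adjusted p = 0.0469), a call lost without any 1 of the 9 samples. Plk1 ran the other way at −0.97 ± 0.42 (adjusted p = 0.162). The groups overlapped in Mad2l1 and Pttg1. With each of the 9 samples left out in turn, Ccnb2 stayed called in only 2 cases. Its call was also lost with the turn by label and with forward arrays only. The call of Pttg1 was lost without erlotinib sample 1 or 3, that of Bub1b without erlotinib sample 2 and that of Mad2l1 without erlotinib sample 1.

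AG1478 and PD153035 in KO ras cells were in 1 run. Of 36 members, 4 were higher with AG1478 and none was lower, against 0.745% of all probes called, with a median of 0.62 against −0.02, 32 of 36 positive and 17 with an unadjusted p under 0.05. Samples did not overlap in 9 members, against 3.04% of all probes. Kif23 read 0.31, 0.48, −0.27, 0.55, −0.32 and 1.10 with AG1478, all above the −0.53 that was the highest with PD153035, and differed by 1.96 ± 0.45 (95% interval 1.06 to 2.87, adjusted p = 0.0202). Pttg1 read −1.01 to −0.33 with AG1478 and −2.69 to −1.27 with PD153035, a difference of 1.59 ± 0.37 (0.85 to 2.32, adjusted p = 0.0212). Cdk1 differed by 1.49 ± 0.39 (0.71 to 2.28, adjusted p = 0.0476), at 0.83 to 2.27 with AG1478, and Ccnb2 by 1.73 ± 0.46 (0.82 to 2.64, adjusted p = 0.0485), at −1.92 to −0.11 with AG1478. These calls did not hold when single samples were left out. None of the 36 members was called without AG1478 sample 2 or without PD153035 sample 1, 3 or 5. The differences stayed at 1.786 to 2.205 for Kif23 and 1.480 to 1.805 for Pttg1 with each sample left out in turn. For Cdk1 they stayed at 1.271 to 1.652 and for Ccnb2 at 1.532 to 1.875. Without both arrays that ran against their dye labels Kif23 was called and Pttg1, Cdk1 and Ccnb2 were not, and with a replicate block Pttg1 was called and the other 3 were not. The keratinocyte markers had a median of 0.61 there, with 0 of 22 called and 4 with an unadjusted p under 0.05.

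AG1478 minus erlotinib in KO ras cells gave 1 of 36 members lower and none higher, against 0.243% of all probes called, with a median of −0.13 against −0.005 and 4 with an unadjusted p under 0.05. It was Kif11, at 0.40, 0.76, −0.78, 0.83, −0.08 and 1.39 with AG1478, overlapping the erlotinib samples at 1.30 and above, with a difference of −1.62 ± 0.36 (adjusted p = 0.0363). The call was lost without any of 7 of the 10 samples (AG1478 1, 3, 4 and 5, erlotinib 1, 2 and 3), and under 6 of 13 alternative settings. These compounds lie in different runs, and with run as a random block Kif11 gave −1.25 (adjusted p = 1). Cdk1 differed by −0.53 (95% interval −1.36 to 0.31), which was not called.

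In WT cells no member was called between any pair of compounds. In WT ras cells limma called 0 of 36 members in AG1478 minus erlotinib, AG1478 minus PD153035 and erlotinib minus PD153035, against 0.897%, 1.29% and 0.176% of all probes. The medians were −0.01, −0.11 and −0.02, against −0.02, 0.01 and 0.02 over all probes, and 1, 2 and 4 members had an unadjusted p under 0.05. In WT mock cells it called 0 in each pair, and 0% of all probes, with medians of 0.16, 0.32 and 0.11 against 0.04, 0.02 and −0.01, and 1, 0 and 0 members with an unadjusted p under 0.05. Within runs the medians in WT mock cells were −0.47 and 0.19 for AG1478 minus erlotinib, −0.07 and 0.31 for AG1478 minus PD153035, and 0.38 and 0.14 for erlotinib minus PD153035. The 95% intervals for Cdk1 in WT ras cells were −0.56 to 1.08 for AG1478 minus erlotinib, −1.03 to 0.61 for AG1478 minus PD153035 and −1.29 to 0.35 for erlotinib minus PD153035. They are wide enough to hold differences of over 1 log2 unit in 1 direction, so like action was not shown. Cenpa had the lowest p among AG1478 minus PD153035 in WT ras cells, 1.00 ± 0.35 (0.30 to 1.69, adjusted p = 0.111).

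The transduction itself gave no call. In WT cells, ras minus mock gave 0 of 36 members by limma, against 0.183% of all probes, with a median of 0.22 against 0.04, 27 positive and 1 with an unadjusted p under 0.05, which was Foxm1, the transcription factor of many of these genes (0.81 ± 0.39, adjusted p = 0.723). Without WT mock sample 2 that median turned to −0.02, and within the 2 runs that held both groups it was 0.51 (1 ras and 2 mock samples) and 0.01 (4 ras and 2 mock samples). The mock samples behind the 0.51 were sample 2 and the average of the repeat 1 arrays, of which 1 array belongs to the other run. In KO cells it gave 0, against 0.539% of all probes, with a median of 0.18 against 0.01, 23 positive and 0 with an unadjusted p under 0.05. Cdk1 there read 0.90, 1.00, 0.16, 1.43 and 1.04 in ras cells, against 0.09, 0.05 and −0.34 in mock cells, apart but with a difference of 0.90 ± 0.47 (adjusted p = 0.791). KO mock and KO ras samples share no run. The ras effect in KO minus that in WT called 0 members, against 0.0108% of all probes, with a median of −0.01 (0.26 without WT mock sample 2) against −0.05, and 1 with an unadjusted p under 0.05, which was Kif11 (1.17 ± 0.55, adjusted p = 0.839).

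Other probes of the members bear on these values. Of the 36 genes, 13 had more than 1 probe, and the 36 had 52 probes in all. Other probes of Cdc25c, Nek2, Cenpa, Cenpe, Smc2, Nusap1, Mki67 and Racgap1 were called in no comparison. The calls below are not all those of other probes. Over all probes, 1.38% were called in KO minus WT ras cells with PD153035 and 1.92% without inhibitor. A second Birc5 probe was lower in KO ras cells given PD153035 than in WT (−1.33 ± 0.28, adjusted p = 0.004), while the probe used gave −0.91 ± 0.35 (adjusted p = 0.252). A second Foxm1 probe was also lower there (−1.28 ± 0.34, adjusted p = 0.0391), against −0.75 ± 0.36 (adjusted p = 0.455) for the probe used. In KO minus WT ras cells without inhibitor, where no probe in use was called, another Birc5 probe gave −1.62 ± 0.39 (adjusted p = 0.0228), another Cdc20 probe −2.07 ± 0.53 (adjusted p = 0.0303) and another Plk1 probe −1.57 ± 0.45 (adjusted p = 0.0493). Which parts of the transcripts these probes read is not given.

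Further genes of mitosis and of its control, outside the 40, were taken from lists by symbol. In KO minus WT ras cells given PD153035, 2 of 66 other mitosis genes were lower and none was higher, against 1.38% of all probes called, with a median of −0.60 and 58 of 66 negative. These were Cks1b (−1.89 ± 0.49, adjusted p = 0.031) and Cks2 (−1.50 ± 0.37, adjusted p = 0.0216), small proteins that dock on cyclin-dependent kinases. Cks2 averaged −1.80 ± 0.28 in KO and −0.30 ± 0.38 in WT (SD, n = 5 each). Of the 18 G2 brakes and cell cycle inhibitors, 2 were higher and 1 was lower. Gadd45a, induced by DNA damage and stress, was higher by 1.31 ± 0.30 (adjusted p = 0.0104), and so was Btg2, an antiproliferative p53 target, by 1.38 ± 0.36 (adjusted p = 0.0302). Wee1, the kinase that holds Cdk1 inactive, was lower by −1.74 ± 0.36 (adjusted p = 0.00433), at −0.66 ± 0.15 in KO and 1.08 ± 0.23 in WT (SD, n = 5 each). Among the 12 anaphase-promoting complex genes and the 11 genes of the DREAM and MuvB complexes limma called 0 and 0, with medians of −0.06 and −0.08 and 0 and 1 with an unadjusted p under 0.05.

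Between erlotinib and PD153035 in KO ras cells, 13 of 66 other mitosis genes were higher with erlotinib and none was lower, against 5.82% of all probes called, with a median of 0.68. Compound and run cannot be told apart here either. They included Cks1b (2.39 ± 0.52, adjusted p = 0.00336), the cytokinesis gene Cep55 (1.87 ± 0.44) and the inner kinetochore genes Cenph (1.71 ± 0.41) and Cenpi (1.52 ± 0.41). Between AG1478 and PD153035 in KO ras cells limma called 0 of 66, with a median of 0.37, 56 positive and 13 with an unadjusted p under 0.05. Gadd45a was lower with AG1478 in that pair, by −1.73 ± 0.28 (adjusted p = 0.00028), at 0.02 ± 0.36 with AG1478 (n = 6) and 1.74 ± 0.62 with PD153035 (SD, n = 5). Fbxo5, the Emi1 inhibitor of the anaphase-promoting complex, was higher with erlotinib than with PD153035, by 1.76 ± 0.51 (adjusted p = 0.0302). With PD153035 against no inhibitor in KO ras cells, 3 of the 66 were lower and none was higher, a share near the 4.84% of all probes called, with a median of −0.46.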

How the data were processed

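For each probe of a mouse oligonucleotide array the submitters deposited 1 log ratio between the dyes. Per the labels' protocols, Trizol-extracted RNA was labelled indirectly with Cy3 or Cy5 beside reference RNA, with the dye order reversed on 12 arrays. That the deposited ratios are log2 is assumed from their spread, with an SD per array of 0.753 to 1.75. Background correction, normalization and ratio direction are not given in the sources used here, and the number of arrays limits the precision.

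The ratio of an array was given the sign that made it correlate positively with the forward-labelled arrays (their median per probe), so that it reads sample over reference. Labels and sign disagreed on 2 arrays. The 2 arrays of WT mock repeat 1 (correlation 0.841, against up to 0.904 for other WT mock pairs) were averaged, leaving 62 samples of 63 arrays. The design text speaks of biological replicates, and p-values measure only the spread between these samples.

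A linear model of 13 groups and a dye term was fitted to all 28049 probes with limma 3.58.1 and its eBayes step (statmod 1.5.0, R 4.3.3). In each of 33 comparisons p-values were adjusted by Benjamini-Hochberg over all tested probes. A probe was tested with values on at least 60 percent of the samples of every group compared, and called at an adjusted p under 0.05. A difference passing this test is written as higher or lower. The fit was tested on simulated data. Tables and figures used Python 3.11.15, pandas 2.3.3 and matplotlib 3.10.9. Symbols matched through the platform annotation to 20925 probes, 159 probes had several symbols and 6965 had none. Runs part where experiment numbers differ by over 100.

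The members and lists were chosen with earlier results of these data known. Sample values are given for the 12 of 15 called members with the smallest adjusted p, except Mad2l1. Those of Ube2c are given only for erlotinib against no inhibitor in KO ras cells. The other 3 and members near the threshold are given in brief. Replicate numbers were not taken as pairs, so no block was used. Deviations of same-numbered samples correlated at −0.66 to 0.69, with a median of 0.002 against 0.001 for other pairs over all 13 groups. These medians were 0.09 and −0.02 in the WT mock groups. They were 0.04 and −0.02 in the WT ras groups and −0.04 and −0.005 in the KO ras groups. Alternatives were the turn by label, disputed arrays left out, no dye term, forward arrays, median centring, quantile normalization, missing-value filters, repeat 1 arrays apart, probes averaged, a fit of the compared groups, run as random or fixed block, replicate block, array weights and each sample left out.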

Additional observations from a re-analysis of the deposited data

Results flagged for a closer look

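In each group of 4 to 6 samples, the highest or lowest sample was tested for standing far from the others of its group, by Dixon's ratio. Chance alone gives about 1 such value in 20 groups. Here 36 of 444 groups (8.11 percent) held one, and no cause was tested.

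Sample 2 of WT mock stood below the other 3 samples in 7 members, which made it the most frequent single sample. Its values were −2.01 for Ccnb2, −0.46 for Plk1, −2.03 for Bub3, 0.37 for Mad2l1, −1.07 for Cdc20, −1.19 for Kif23 and −1.92 for Foxm1. In Kif23 the other 3 samples lay at 0.82 to 1.08.

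In KO ras cells without inhibitor, the median of the members was 0.13 in sample 2, above the other 4 at −0.27 to −0.23, and Kif23 was high in that sample too, at 0.66. In KO ras cells given PD153035, Ccnb2 was high in sample 2 (−2.41), Cdc25b low in sample 4 (−0.12), Aurka high in sample 3 (3.79, against −1.83 to −0.50 in the others), Nek2 low in sample 1 (−3.89), Pttg1 high in sample 4 (−1.27) and Mki67 low in sample 4 (−0.10). In KO ras cells given erlotinib, Pttg1 was low in sample 4 (−2.12) and Ect2 low in sample 1 (−0.35).

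In WT ras cells without inhibitor, Tpx2 was high in sample 2 (1.62), and Ube2c (−0.84) and Kif23 (0.13) were low in sample 3. In WT ras cells given AG1478, Kif23 was low in sample 3 (−0.57). In those given erlotinib, Ttk (0.65) and Nusap1 (0.55) were high in sample 4 and Kif11 low in sample 1 (0.49). In those given PD153035, Cdc25c was high (0.23) and Mad2l1 low (0.44) in sample 5, while Kif22 was low (0.41) and Prc1 high (0.62) in sample 2.

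In WT mock cells given erlotinib, Aurkb was low in sample 5 (−1.78) and Cenpa high in sample 3 (2.75). In those given PD153035, sample 1 was low in Aurka (−2.46), Cenpa (0.47) and Prc1 (−1.35). There Nek2 was high (−0.59) in sample 5, and Birc5 (−1.08) and Cenpe (−1.53) were low in it.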

How the results depend on the processing

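Under the alternative settings, counts of called members stayed within 1.5 times in 418 cases and moved in 59, medians moved by less than the spread in 474 and by more in 3, and no called member reversed. Calls of single members were lost in 65 cases and kept in 451, and on leaving out a sample lost in 89 and kept in 385. Unless a value shows it, the cause was not tested, and 3 to 6 samples per group limit what small differences could be called.

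Array weights moved most counts: KO minus WT gave 11 calls in mock, 8 in ras, 2 with AG1478, 1 with erlotinib, 21 with PD153035 and 15 in the mean, and the interactions gave 3 with AG1478, 3 with erlotinib and 2 with PD153035. They gave 1 for PD153035 and 2 for the mean in WT mock, 1 for PD153035 in WT ras, and 2, 13, 12 and 5 for AG1478, erlotinib, PD153035 and the mean in KO ras. Between compounds they gave 3 for AG1478 minus PD153035 in WT ras and 4, 11 and 23 for AG1478 minus erlotinib, AG1478 minus PD153035 and erlotinib minus PD153035 in KO ras. KO minus WT mock had 2 calls with forward arrays only, with quantile normalization or with the repeat 1 arrays apart, and 1 with probes on every array or averaged. KO minus WT ras had 3 with probes averaged.

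The call in KO minus WT with AG1478 fell to 0 without the disputed arrays, without a dye term, with forward arrays, quantile normalization, only the groups compared, averaged probes or run as random block. AG1478 minus erlotinib in KO ras fell to 0 under these settings except averaging, and with probes on every array, and gave 3 with the turn by label. AG1478 minus PD153035 in KO ras gave 8 by label, 2 without the disputed arrays or the dye term, and 1 with the replicate block, which ended 1 further call (Tpx2 in erlotinib minus PD153035, 1.00, adjusted p = 0.053 by limma) and moved no other count of calls by over 1.5 times. AG1478 in KO ras gave 2 by label. PD153035 in KO ras gave 8 with quantile normalization and 0 with run as random block, as did erlotinib minus PD153035 with 0. The mean in KO ras gave 1 with forward arrays, quantile normalization, only the groups compared or averaged probes. KO minus WT with PD153035 gave 16 with only the groups compared. The mean of KO minus WT gave 3 by label, 2 with forward arrays, 10 with only the groups compared, and 11 with run as random or fixed block. The median for the erlotinib interaction was 0.93 with forward arrays and 0.89 with weights, and that of erlotinib minus PD153035 in KO ras was 0.69 with probes on every array.

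Leaving out 1 sample gave 0 to 1 calls for the AG1478 interaction, KO minus WT with AG1478 and the mean in KO ras, 0 to 2 for AG1478 minus erlotinib and erlotinib in KO ras (2 without erlotinib sample 4) and for KO minus WT ras (2 without KO ras sample 5), and 0 to 5 for AG1478 minus PD153035 in KO ras. Erlotinib minus PD153035 in KO ras gave 7 to 12, lowest without erlotinib sample 1, and the mean of KO minus WT 3 to 9, lowest without KO ras erlotinib sample 4.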

Other observations

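Genes of DNA replication and the G1/S transition, which act a phase earlier, were taken from a list of 37. In KO minus WT ras cells given PD153035, 2 were lower and none was higher, against 1.38% of all probes called, with a median of −0.56. They were Uhrf1, which carries DNA methylation through replication (−1.52 ± 0.39, adjusted p = 0.0282), and Lig1, the replicative DNA ligase (−1.27 ± 0.34, adjusted p = 0.0389). Uhrf1 averaged −0.88 ± 0.26 in KO and 0.64 ± 0.08 in WT (SD, n = 5 each). In erlotinib minus PD153035 in KO ras cells, 14 of 37 were higher and none was lower, against 5.82% of all probes called, with a median of 0.88, among them Rrm2, a subunit of ribonucleotide reductase (2.85 ± 0.68, adjusted p = 0.00721), and E2f1 (2.72 ± 0.50, adjusted p = 0.000595). These compounds lie in different runs. In KO minus WT ras cells without inhibitor, where no member was called by limma and 16 had an unadjusted p under 0.05, the list had 2 lower genes against 1.92% of all probes called, Ccne1, cyclin E1 (−2.02 ± 0.49, adjusted p = 0.0227), and Tk1, thymidine kinase (−1.81 ± 0.48, adjusted p = 0.0364). Genotype and run cannot be told apart there. Btg2, an antiproliferative gene, differed in WT ras cells by −1.46 ± 0.36 with AG1478, −1.70 ± 0.36 with erlotinib and −2.22 ± 0.36 with PD153035, and the PD153035 effect in KO minus that in WT was 2.36 ± 0.50 (adjusted p = 0.0373). The untreated WT ras samples share no run with treated ones, so inhibitor and run cannot be told apart in these values.

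Among 11248 genes outside the members with a value on every array, the 10 whose values over the 62 samples correlated best with the mean of the members were Uhrf1 (Pearson r 0.825), Hmgb2 (0.824), Lig1 (0.817), Manf (0.809), Cks2 (0.804), Hsp90b1 (0.803), Fignl1 (0.797), Kpna2 (0.786), Pbk (0.767) and Asf1b (0.762). Uhrf1 and Lig1 are from the replication list, and Cks2 and Pbk from the list of other mitosis genes. Manf and Hsp90b1 code for proteins of the endoplasmic reticulum. All samples share the reference RNA, so these values are a description.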
